A study of Mus musculus with 258 samples.

Results

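The genes described here encode voltage-gated calcium, sodium and potassium channels, the other potassium channels, the pacemaker channels and their accessory subunits. They were taken by gene symbol: those beginning with Cacna, Cacnb or Cacng, with Scn and the letters a or b, with Hcn, or with Kcn, a family letter and a number, without Kcnj11. Of 40824 genes in the deposited count tables, 126 met the rule. Of these, 124 are coding genes, and Kcnq1ot1 and Kcnd3os, which are non-coding or opposite-strand transcripts, are kept apart. A coding gene is reported by level where it reached 5 CPM (counts scaled to the reads in genes of each library) in any of 3 bulk or 4 single-cell groups, and 52 did.

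Voltage-gated channels open when the membrane depolarises. Potassium channels pull the membrane back towards rest, and the two-pore potassium family leaks at all voltages and sets that rest. In mature beta cells, glucose metabolism closes the potassium channel built from Kcnj11 and Abcc8, the membrane depolarises, calcium enters through voltage-gated calcium channels and insulin is released. Pacemaker (Hcn) channels open on hyperpolarisation and are best known from heart and brain.

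The study followed how endocrine cells arise in the mouse pancreas, and asked what the histone demethylase Jmjd3 contributes. Bulk RNA came from 3 sorted populations, in duplicate libraries: the Ngn3-low and the Ngn3-high fraction of E13.5 dorsal pancreas (embryonic day), separated by the brightness of an Ngn3-GFP reporter, and E17.5 cells positive for Ins1-RFP, a reporter driven by an insulin gene, which the series calls nascent beta cells. Single E13.5 dorsal pancreas cells were also sequenced, with 44 Jmjd3-deleted and 59 wild-type (WT) cells from the Ngn3-high gate, and 69 deleted and 49 WT cells from the Ngn3-low gate. The deleted cells carried Jmjd3 fl/fl and Pdx1-Cre, in which the promoter of a pancreatic progenitor gene drives the recombinase, and since the labels give the WT cells no Cre, Cre and deletion cannot be told apart. The E17.5 cells differ from the E13.5 cells in age and in the reporter used, and these cannot be told apart from stage. No label names an animal or litter, so a bulk p-value speaks of the spread among libraries alone, which may be technical, and the single-cell groups count as 1 sample each and have no test.

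Bulk libraries held 11957415 to 17760214 reads in genes and cells 380478 to 1949839. Kdm6b, the gene of Jmjd3, stood at 107 CPM in deleted and 265 CPM in WT Ngn3-high cells, and at 55.5 CPM in deleted and 131 CPM in WT Ngn3-low cells, summed over cells. Endocrine progenitor markers (6 genes) summed to 328 and 303 CPM in the Ngn3-low libraries, 10908 and 12296 CPM in the Ngn3-high libraries and 3175 and 2884 CPM in the Ins1-RFP positive libraries. Beta cell markers (6 genes) summed to 182 and 22.1 CPM in the Ngn3-low libraries, 400 and 441 in Ngn3-high and 99577 and 67644 in Ins1-RFP positive ones. Markers of white blood cells, 11 of 12 in the tables, summed to 18.7 and 9.12 CPM in Ngn3-high libraries, against 2742 and 2281 CPM in Ngn3-low. Endothelial markers (12 genes) summed to 16 and 11.2 CPM in Ngn3-high and 520 and 576 CPM in Ngn3-low libraries, so these other cell types moved with the gate in bulk. Acinar markers (11 genes) summed to 1213 CPM in the first and 20795 CPM in the second Ins1-RFP positive library, and the chi-square between these replicates, divided by its degrees of freedom, was 57.9, against 12.9 and 17.2 for the other pairs. The part these other cells play in the bulk results was not tested. In bulk, fewer cells of a type and less RNA per cell cannot be told apart.

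All 52 reported genes passed the filter on low counts and were tested, as were 32 of the 72 below 5 CPM. The other 40 were not tested, and Kcns2, Kcnk4 and Kcnk15 had no read in any library or cell. Just inside the level were Kcnq3 with 5.08 CPM and Kcng3 with 5.68 CPM, and just outside Kcnn1 with 4.98 CPM and Cacna1g with 4.43 CPM. Among the 3 bulk groups, 6 of the 52 had their highest level in Ngn3-low, 19 in Ngn3-high and 27 in Ins1-RFP positive cells. A gene could enter the 52 through the group where it was highest, so this division partly follows from the rule. No share over all genes is at hand for it.

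**Figure D1:**
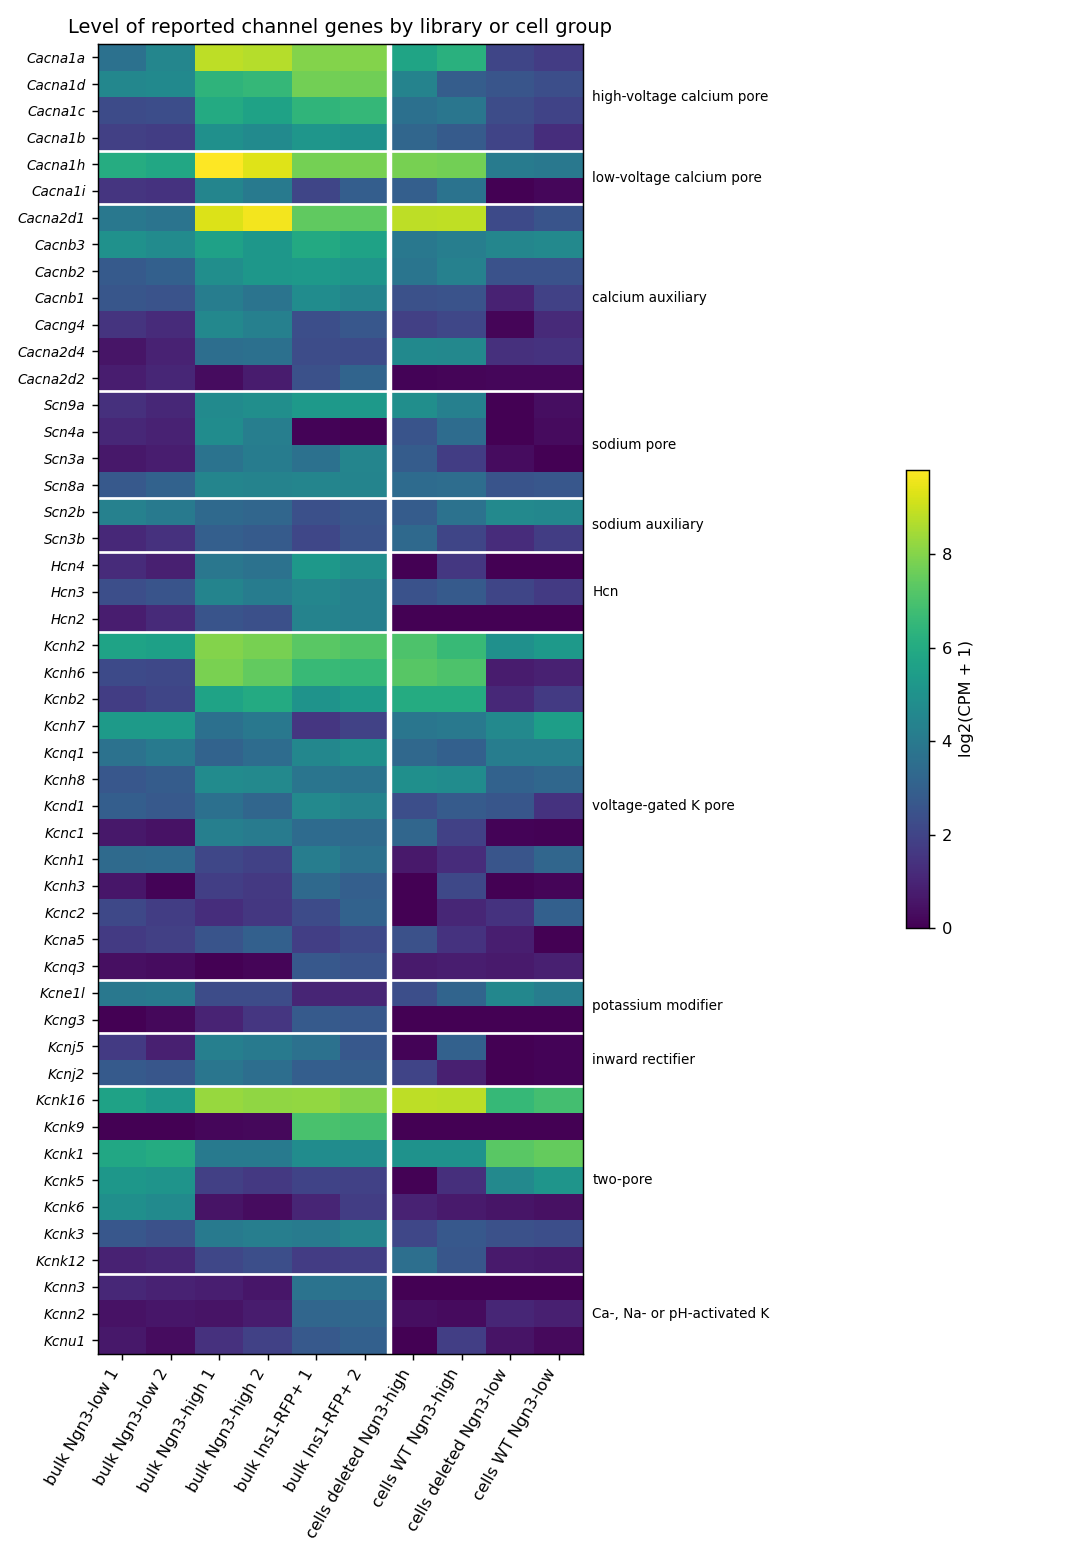
Level of 49 of the reported coding genes (rows, by role) as log2(CPM + 1), in the 6 bulk libraries and the 4 single-cell groups (columns, cells of a group summed). Cacna2d1, Cacna1h and Kcnk16 are among the brightest rows in Ngn3-high libraries and cells, and Kcnk9 is bright only in the 2 Ins1-RFP positive libraries, with 127 and 117 CPM.

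Genes of calcium, sodium and many potassium channels were already high in Ngn3-high cells at E13.5. In Ins1-RFP positive cells other potassium channel and pacemaker genes stood higher, while some calcium and erg-type potassium channel genes stood lower. The share of members that fell in that second step was near the share of all genes. Against Ngn3-low, 45 of the 84 tested members rose in Ngn3-high cells (53.6%, against 27.7% of the 15684 genes tested) and 18 fell (21.4%, against 30.2%). The median log2 fold change of these members was 1.44, or 1.31 with genes at no read in a group set at their bound, and -0.01 over all genes. In Ins1-RFP positive cells against Ngn3-high cells, 35 rose (41.7%, background 26.1%) and 20 fell (23.8%, background 24.9%), with a median of 0.62 against 0.01 for all genes. In Ins1-RFP positive cells against Ngn3-low cells, 52 rose (61.9%, background 30.4%) and 13 fell (15.5%, background 35.5%), with a median of 1.70 against -0.08. These are calls of edgeR's quasi-likelihood test at a Benjamini-Hochberg adjusted p of 0.05 or less, and the 3 comparisons share libraries. The same shares of all genes are the background for the counts by role below, which are of few genes each. Among the 32 tested genes below 5 CPM, 6 rose and 10 fell in Ngn3-high against Ngn3-low, and among the 52 reported genes 39 rose and 8 fell. How many members rose in Ins1-RFP positive against Ngn3-high cells changed when 1 library was left out. No share of all genes was computed for those fits.

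**Figure D2:**
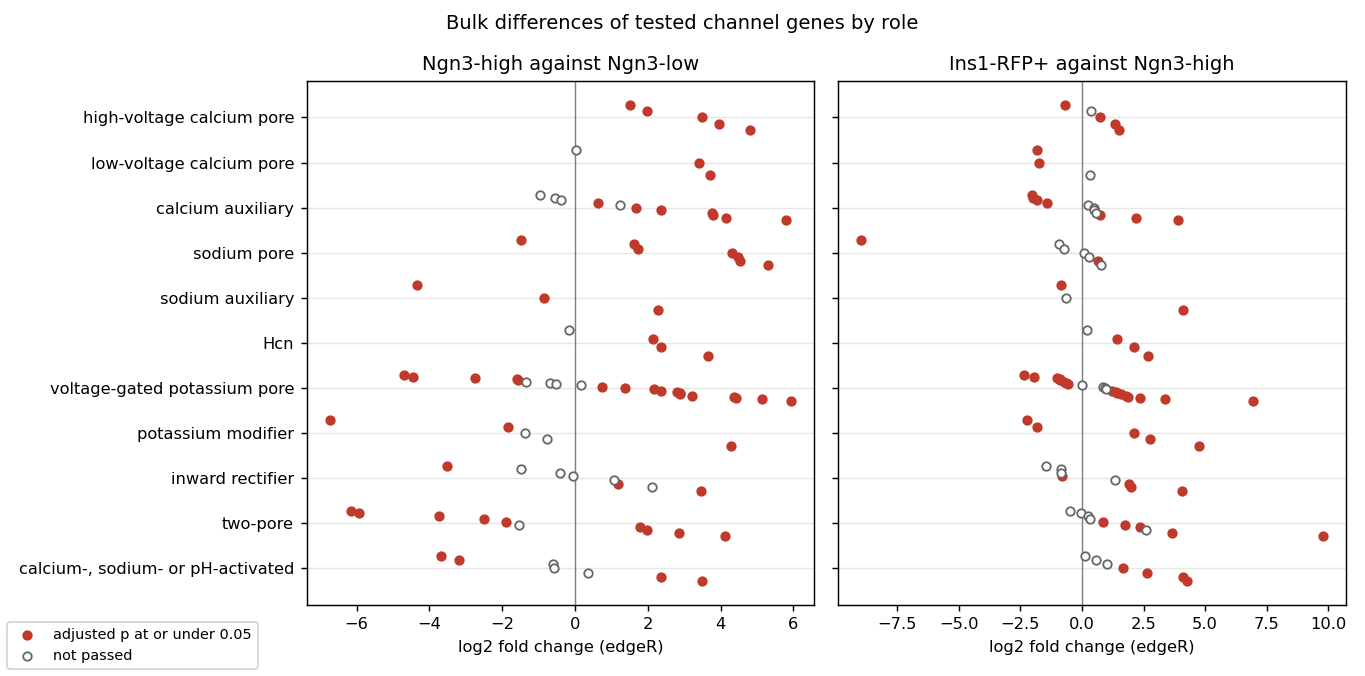
Each point is 1 tested coding channel gene, with its log2 fold change from edgeR on the horizontal axis (positive is higher in the group named first in the panel title) and its role on the vertical axis. Filled red points have an adjusted p of 0.05 or less and open points do not; all 5 tested high-voltage calcium pore genes lie right of 0 in Ngn3-high against Ngn3-low, and the most extreme points, such as Kcnk9 and Scn4a, rest on a group with almost no reads, so their size depends on the prior count.

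The high-voltage calcium pores, which open on strong depolarisation and admit the calcium that drives secretion, rose in Ngn3-high cells in 5 of 5 tested genes. Their summed level was 41.3 and 53.4 CPM in the Ngn3-low libraries, 626 and 584 CPM in Ngn3-high and 586 and 587 CPM in Ins1-RFP positive libraries. Cacna1a (chr8:84338631-84640251, GRCm38), the pore of P/Q-type channels of nerve terminals, had 11.5 and 21.6 CPM in the Ngn3-low libraries, 449 and 417 in Ngn3-high and 252 and 254 in Ins1-RFP positive ones. Its groups did not overlap, and Ngn3-high was the highest: the log2 fold change was 4.81 ± 0.26 (SE; edgeR adjusted p = 1.81e-06) in Ngn3-high against Ngn3-low and -0.69 ± 0.22 (p = 0.0294) in Ins1-RFP positive against Ngn3-high. That fall was no longer called without the first Ngn3-high library (-0.61, adjusted p = 0.131) or the second (-0.76, adjusted p = 0.0723).

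Cacna1d (chr14:30039941-30491156), which encodes an L-type pore that opens at fairly negative voltages, had another order. It had 22.4 and 24.4 CPM in the Ngn3-low libraries, 82.9 and 91.5 in Ngn3-high and 211 and 206 in Ins1-RFP positive ones. The 3 groups lay apart in steps, by 1.98 ± 0.11 on the log2 scale in Ngn3-high against Ngn3-low (adjusted p = 1.77e-06) and 1.34 ± 0.10 in Ins1-RFP positive against Ngn3-high (adjusted p = 2.76e-05). The first step was small in WT single cells. Summed over cells, Cacna1d stood at 20.2 CPM in deleted and 6.39 CPM in WT Ngn3-high cells. In Ngn3-low cells it stood at 4.95 CPM in deleted and 4.14 CPM in WT. The log2 ratio of CPM + 1, Ngn3-high over Ngn3-low, was 1.83 in deleted and 0.52 in WT cells. Cacna1c, the L-type pore of heart and smooth muscle that beta cells also use, had 3.72 and 3.93 CPM in the Ngn3-low libraries, 62.7 and 49.4 in Ngn3-high and 85.5 and 91.2 in Ins1-RFP positive ones. It too stood highest in the Ins1-RFP positive libraries, without overlap, and rose in both steps, by 3.96 (adjusted p = 6.04e-07) and 0.74 (adjusted p = 0.00257). Cacna1b, the N-type pore, had 2.59 and 2.45 CPM in the Ngn3-low libraries, 29.2 and 24.9 in Ngn3-high and 34.8 and 31 in Ins1-RFP positive ones. Its rise in Ngn3-high cells was 3.50 ± 0.19 (adjusted p = 1.81e-06), and its 0.36 ± 0.16 in Ins1-RFP positive against Ngn3-high did not pass (adjusted p = 0.0851), although those libraries did not overlap. The fifth tested gene, the R-type pore Cacna1e, was below 5 CPM throughout, with 3.91 CPM in Ins1-RFP positive cells.

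The bases upstream of 5 members are shown in the paragraphs on them, because these genes have the clearest and most different bulk patterns among those with an entry in the promoter table. That table, from RefSeq on build GRCm38.p6, held windows for 32 of the 52 reported genes. Only bases before the annotated gene are printed, 5′ to 3′ on the gene's strand in lower case, with matches to searched motifs in capitals. The motifs, sought on both strands in the 250 bases before each start, were the E-boxes CAGATG and CAGCTG, the GC box GGGCGG, the TATA sequence TATAAA, and the left part TTCAGCACC and the right part of RE1, the element that the repressor REST reads in neuronal genes. Of all 32851 windows in the table, 14.4% held CAGATG, 13% CAGCTG, 32.7% GGGCGG, 12.4% TATAAA, 0.301% TTCAGCACC and 0.527% the right part of RE1. Of the 42 windows of reported members, 5 held CAGATG, 10 CAGCTG, 23 GGGCGG and 1 TATAAA, and the median GC content was 62.6%, against 52.4% over all windows. A match describes letters and shows no binding. The window of Cacna1d (minus strand, chr14:30491157-30491406) has 39.6% GC and is the one with TATAAA, at 207 and 205 bases before the start on opposite strands, which overlap, and at 150 bases:
Cacna1d: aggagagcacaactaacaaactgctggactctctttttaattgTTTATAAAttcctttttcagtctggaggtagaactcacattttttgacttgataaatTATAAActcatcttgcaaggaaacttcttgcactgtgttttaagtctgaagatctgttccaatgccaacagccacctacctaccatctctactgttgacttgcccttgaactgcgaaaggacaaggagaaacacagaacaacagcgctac

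Of the 3 low-voltage (T-type) calcium pores, which open near rest, Cacna1h and Cacna1i were highest in Ngn3-high cells. Cacna1h (chr17:25374285-25436334) had 66.8 and 58.3 CPM in the Ngn3-low libraries, 895 and 641 in Ngn3-high and 215 and 219 in Ins1-RFP positive ones. No library of one group reached another, and the gene rose by 3.70 ± 0.19 in Ngn3-high against Ngn3-low (adjusted p = 1.49e-06) and fell by 1.74 ± 0.18 in Ins1-RFP positive against Ngn3-high (adjusted p = 0.000119). Cacna1i had 1.86 and 1.72 CPM in the Ngn3-low libraries, 21.2 and 15.1 in Ngn3-high and 3.14 and 6.64 in Ins1-RFP positive ones. It showed the same order, with 3.42 ± 0.38 (adjusted p = 9.84e-05) and -1.83 ± 0.34 (adjusted p = 0.00273), and the fall was -2.44 without the second Ins1-RFP positive library. The third, Cacna1g, averaged 3.81 CPM in Ngn3-low, 3.68 in Ngn3-high and 4.43 in Ins1-RFP positive cells and passed neither of these comparisons. Relative to Ngn3-low, Cacna1h and Cacna1i were still higher in Ins1-RFP positive cells, by 1.96 ± 0.18 (adjusted p = 2.71e-05) and 1.59 ± 0.39 (adjusted p = 0.00668), the last being 0.99 without the second Ins1-RFP positive library.

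The accessory calcium channel subunits carry the pores to the membrane and tune them. Of 11 tested, 7 rose and none fell in Ngn3-high against Ngn3-low cells, and 3 rose and 4 fell in Ins1-RFP positive against Ngn3-high cells. Cacna2d1 (chr5:15934264-16374511), the extracellular subunit that gabapentin binds, had 14.1 and 12.7 CPM in the Ngn3-low libraries, 633 and 784 in Ngn3-high and 168 and 167 in Ins1-RFP positive ones. It was among the most abundant members in Ngn3-high cells and separated all 3 groups, with 5.80 ± 0.17 in Ngn3-high against Ngn3-low (adjusted p = 2.87e-07) and -2 ± 0.14 in Ins1-RFP positive against Ngn3-high (adjusted p = 1.83e-05). Its relative Cacna2d4, known from photoreceptors, had 0.45 and 0.90 CPM in the Ngn3-low libraries, 10.6 and 11.2 in Ngn3-high and 3.89 and 3.73 in Ins1-RFP positive ones, again highest in the middle group (4.14 ± 0.34, adjusted p = 1.57e-05, and -1.43 ± 0.28, adjusted p = 0.0031). Cacng4, whose product also escorts glutamate receptors in neurons, had 1.80 and 1.31 CPM in the Ngn3-low libraries, 22.8 and 18.1 in Ngn3-high and 4.08 and 5.37 in Ins1-RFP positive ones, and fell by 2.04 ± 0.25 in Ins1-RFP positive against Ngn3-high cells (adjusted p = 0.000314). The third family member, Cacna2d2, went the other way and was seen mainly in Ins1-RFP positive cells, with 0.732 and 1.06 CPM in the Ngn3-low libraries, 0.237 and 0.669 in Ngn3-high and 4.33 and 7.83 in Ins1-RFP positive ones. It rose by 3.88 ± 0.54 in Ins1-RFP positive against Ngn3-high cells (adjusted p = 0.000576), a value of 3.26 without the first and 4.69 without the second Ngn3-high library.

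The beta subunits inside the cell changed less. Cacnb2 had 5.91 and 7.12 CPM in the Ngn3-low libraries, 27.9 and 35 in Ngn3-high and 37.4 and 33.2 in Ins1-RFP positive ones, and rose by 2.36 ± 0.18 in Ngn3-high against Ngn3-low (adjusted p = 1.13e-05). Ngn3-high and Ins1-RFP positive libraries overlapped for it, with 0.25 ± 0.16 (adjusted p = 0.231). Cacnb1 rose in both steps, by 1.68 ± 0.23 (adjusted p = 0.000343) and 0.74 ± 0.21 (adjusted p = 0.0195), and the second call was lost without the second Ngn3-high library (0.54, adjusted p = 0.11) or the first Ins1-RFP positive one (0.54, adjusted p = 0.0839). Cacnb3 rose by 0.64 ± 0.19 in Ngn3-high against Ngn3-low (adjusted p = 0.0179), and this call was lost without the second Ngn3-low library (0.51, adjusted p = 0.115) or the first Ngn3-high one (0.39, adjusted p = 0.15).

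**Figure D3:**
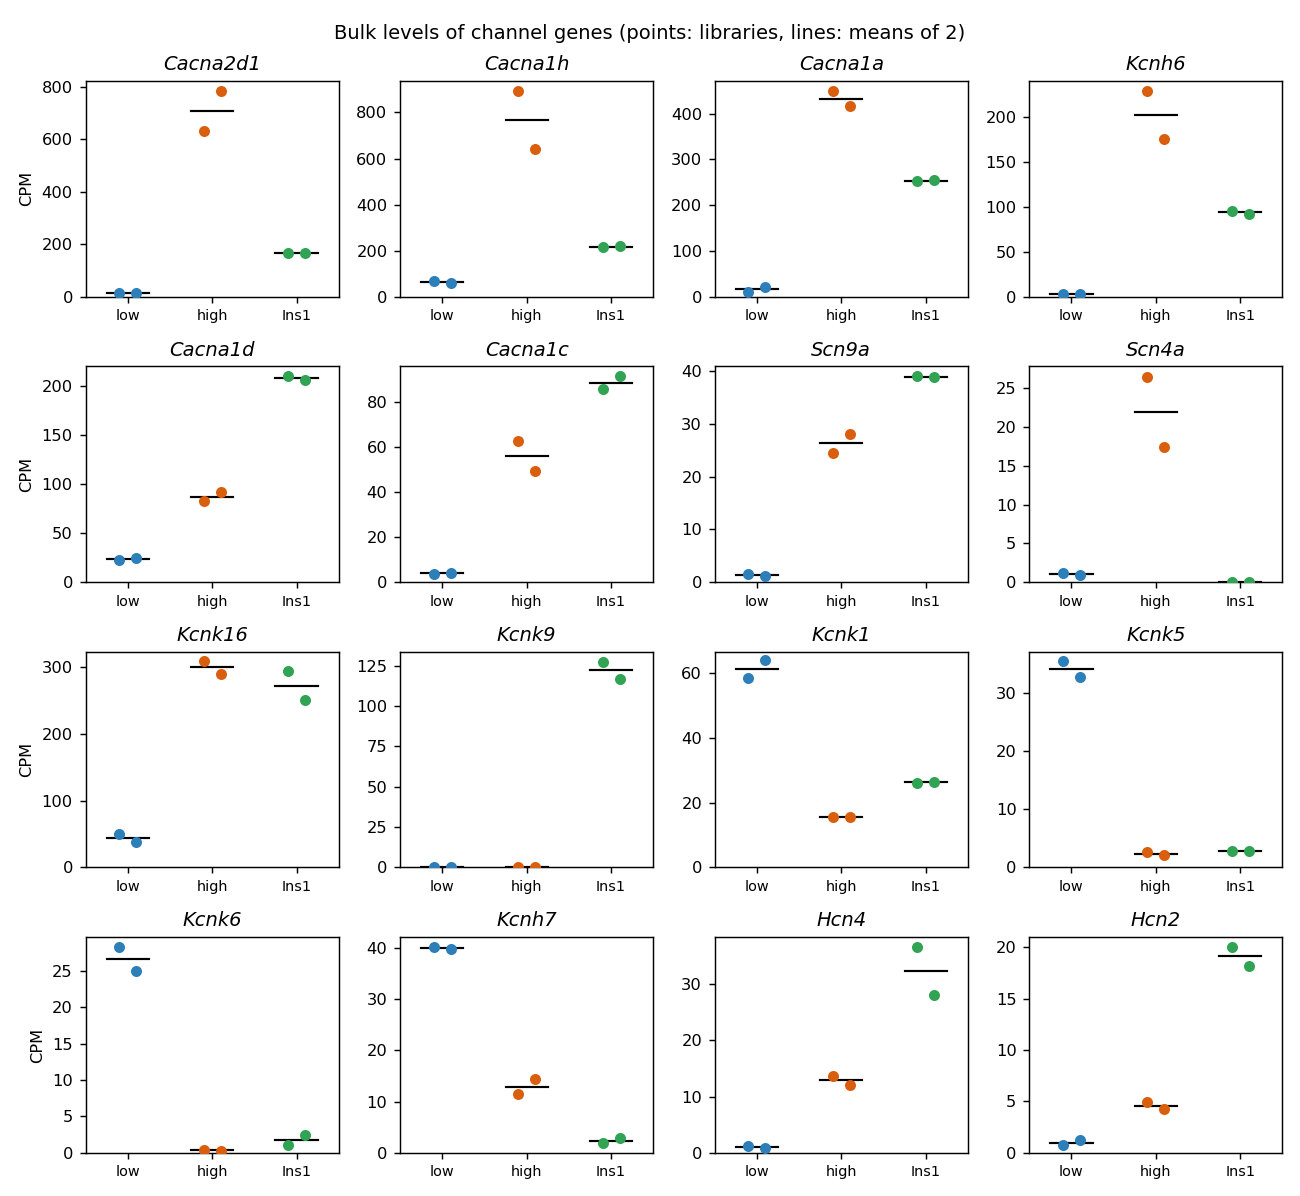
CPM (vertical axis, from 0, a scale per panel) of 16 channel genes in each bulk library: points are libraries, lines are means of 2, for Ngn3-low, Ngn3-high and Ins1-RFP positive cells from left to right. Cacna2d1, Cacna1h, Cacna1a, Kcnh6 and Scn4a peak in Ngn3-high, Cacna1d, Hcn4, Hcn2 and Kcnk9 in Ins1-RFP positive, and Kcnk1, Kcnk5, Kcnk6 and Kcnh7 in Ngn3-low libraries.

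Sodium channel pores, which carry the fast upstroke of action potentials, rose in Ngn3-high cells in 6 of 7 tested genes and fell in 1. Scn9a, the sodium channel of pain-sensing neurons, had 1.58 and 1.15 CPM in the Ngn3-low libraries, 24.6 and 28.1 in Ngn3-high and 39 and 38.8 in Ins1-RFP positive ones. It rose by 4.31 ± 0.21 in Ngn3-high against Ngn3-low (adjusted p = 9.79e-07) and by 0.65 ± 0.16 in Ins1-RFP positive against Ngn3-high (adjusted p = 0.00918, lost without the first Ngn3-high library at 0.57 and adjusted p = 0.0547). Scn3a, a sodium channel of the embryonic nervous system, had 0.563 and 0.736 CPM in the Ngn3-low libraries, 12.2 and 16.2 in Ngn3-high and 11.5 and 21.3 in Ins1-RFP positive ones. Its Ngn3-high and Ins1-RFP positive libraries overlapped (0.29 ± 0.30, adjusted p = 0.438), and both groups stood far above Ngn3-low, by 4.53 ± 0.41 in Ngn3-high (adjusted p = 2.58e-05). Scn8a, expressed along nerve axons, likewise rose by 1.73 ± 0.18 in Ngn3-high against Ngn3-low (adjusted p = 6.85e-05) and did not pass in the next step (0.10, adjusted p = 0.632), at 20.9 and 20.1 CPM in Ngn3-high and 21 and 20.6 CPM in Ins1-RFP positive libraries.

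Scn4a, the sodium channel of skeletal muscle, was found mainly in the Ngn3-high group. It had 1.13 and 0.90 CPM in the Ngn3-low libraries, 26.5 and 17.4 in Ngn3-high and 0.0628 and 0 in Ins1-RFP positive ones. In counts this is 1 read in the 2 Ins1-RFP positive libraries and 655 reads in the 2 Ngn3-high libraries, a CPM ratio of 667 with a 95% counting interval of 119 to 26373. The rise in Ngn3-high against Ngn3-low was 4.49 ± 0.35 (adjusted p = 1.22e-05). The fall in Ins1-RFP positive against Ngn3-high was called with an adjusted p of 1.16e-05, and its fitted size moved between -11.34 without the first and -8.19 without the second Ins1-RFP positive library. Of the accessory beta subunits, which tether and modulate the pores, Scn2b fell in both steps, with 18.9 and 15.1 CPM in the Ngn3-low libraries, 9.31 and 8.53 in Ngn3-high and 4.21 and 5.14 in Ins1-RFP positive ones. Its change of -0.85 ± 0.21 in Ngn3-high against Ngn3-low (adjusted p = 0.00844) was not called without the first Ngn3-low library (-0.65, adjusted p = 0.0891) or the second Ngn3-high one (-0.77, adjusted p = 0.0518), and the next step (-0.85 ± 0.22, adjusted p = 0.0131) not without the first Ngn3-high one (-0.77, adjusted p = 0.0655). Scn3b rose by 2.29 ± 0.32 in Ngn3-high against Ngn3-low (adjusted p = 0.000403), with 6.76 and 6.11 CPM in Ngn3-high and 1.18 and 1.64 CPM in Ngn3-low libraries.

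The 3 reported pacemaker genes were higher in Ngn3-high than in Ngn3-low cells, and Hcn2 and Hcn4 rose again in Ins1-RFP positive cells. Hcn4, the main pacemaker gene of the sinoatrial node, had 1.30 and 0.818 CPM in the Ngn3-low libraries, 13.7 and 12.1 in Ngn3-high and 36.6 and 28.1 in Ins1-RFP positive ones. The groups did not overlap, and the steps were 3.64 ± 0.28 (adjusted p = 1.09e-05) and 1.41 ± 0.22 (adjusted p = 0.000987). Hcn2 had 0.732 and 1.23 CPM in the Ngn3-low libraries, 4.92 and 4.27 in Ngn3-high and 20.04 and 18.2 in Ins1-RFP positive ones, with steps of 2.35 ± 0.30 (adjusted p = 2e-04) and 2.13 ± 0.24 (adjusted p = 0.000193). Its first step was not seen in single cells, where Hcn2 had no read in deleted or WT Ngn3-high cells. In Ngn3-low cells it had 1 read in deleted and none in WT cells. All Hcn genes together stood at 4.65 CPM in deleted and 7.88 CPM in WT Ngn3-high cells, and at 3.22 CPM in deleted and 2.2 CPM in WT Ngn3-low cells. Hcn3 made the first step (2.13 ± 0.21, adjusted p = 5.11e-05) and not the second (0.20 ± 0.19, adjusted p = 0.405), with 20.2 and 16.6 CPM in Ngn3-high and 21.9 and 18.2 CPM in Ins1-RFP positive libraries. The upstream bases of Hcn4 (plus strand, chr9:58822699-58822948) are 71.2% GC, with GGGCGG on the other strand at 196 and 163 bases before the start, printed here as CCGCCC:
Hcn4: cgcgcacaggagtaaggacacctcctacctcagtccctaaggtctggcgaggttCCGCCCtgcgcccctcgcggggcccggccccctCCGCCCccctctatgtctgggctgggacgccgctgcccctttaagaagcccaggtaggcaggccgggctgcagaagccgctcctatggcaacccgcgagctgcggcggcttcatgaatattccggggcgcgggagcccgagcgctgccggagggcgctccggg

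Pores of voltage-gated potassium channels, which end action potentials and set their rate, made up the largest role, with 30 members of which 21 were tested. In Ngn3-high against Ngn3-low cells 12 rose and 5 fell, and in Ins1-RFP positive against Ngn3-high cells 9 rose and 8 fell. The erg genes, whose channels shape repolarisation in heart and beta cells, split. Kcnh6 (chr11:106008044-106035595) had 3.55 and 3.35 CPM in the Ngn3-low libraries, 229 and 175 in Ngn3-high and 95.8 and 91.6 in Ins1-RFP positive ones. It had the largest rise among members of 10 CPM or more, 5.95 ± 0.19 (adjusted p = 2.97e-07), and stood lower by -1.03 ± 0.14 in Ins1-RFP positive against Ngn3-high cells (adjusted p = 0.000548), with no overlap of groups. Kcnh2, the erg gene mutated in human long QT syndrome, had 51.1 and 46.6 CPM in the Ngn3-low libraries, 255 and 222 in Ngn3-high and 156 and 136 in Ins1-RFP positive ones, the same order with smaller steps (2.37 ± 0.13, adjusted p = 2.15e-06, and -0.63 ± 0.13, adjusted p = 0.00402). The third erg gene, Kcnh7, ran opposite, with 40.1 and 39.8 CPM in the Ngn3-low libraries, 11.4 and 14.3 in Ngn3-high and 1.95 and 2.83 in Ins1-RFP positive ones. It fell in each step, by 1.56 ± 0.19 (adjusted p = 0.000182) and by 2.35 ± 0.23 (adjusted p = 8.74e-05).

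The 146 bases upstream of the annotated Kcnh6 gene (plus strand, chr11:106007898-106008043) hold both TTCAGCACC and a match to the right part of RE1, 186 and 170 bases before the start used in the table. Only 4 of the 32851 windows held both, 0.0122%, and among windows of reported members only that of Kcnh6. The other bases of its window lie inside the annotated gene and are not printed; they hold GGGCGG at 99, 72 and 46 bases before that start:
Kcnh6: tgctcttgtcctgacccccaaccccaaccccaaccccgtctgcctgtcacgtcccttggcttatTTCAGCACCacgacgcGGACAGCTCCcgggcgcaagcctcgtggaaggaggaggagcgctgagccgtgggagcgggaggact

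Kcnb2, a slower delayed rectifier, had 2.48 and 3.11 CPM in the Ngn3-low libraries, 50.2 and 62.3 in Ngn3-high and 31.9 and 40.6 in Ins1-RFP positive ones. It peaked in Ngn3-high cells, with no overlap of groups, and rose there by 4.43 ± 0.21 against Ngn3-low (adjusted p = 8.83e-07). In Ins1-RFP positive against Ngn3-high cells it fell by 0.55 ± 0.17 (adjusted p = 0.0235; not called without the second Ngn3-high library, -0.41 and adjusted p = 0.131, or the first Ins1-RFP positive one, -0.40 and adjusted p = 0.103).

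Kcnc1, a fast-deactivating pore known from fast-spiking neurons, had 0.563 and 0.409 CPM in the Ngn3-low libraries, 17.7 and 15.7 in Ngn3-high and 9.80 and 9.47 in Ins1-RFP positive ones. It rose by 5.13 ± 0.28 (adjusted p = 1.69e-06) and then stood lower by -0.71 ± 0.20 (adjusted p = 0.0174), a call lost without the first Ngn3-high library (-0.60, adjusted p = 0.102). Kcnc2 stayed under 8 CPM in every library.

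Members of the Kcnq family give slow currents that steady the membrane. Kcnq1, the slow repolarising channel of heart, had 11.8 and 15.3 CPM in the Ngn3-low libraries, 7.71 and 10.2 in Ngn3-high and 22.2 and 28.6 in Ins1-RFP positive ones. It was lowest in Ngn3-high cells, where its -0.52 ± 0.22 against Ngn3-low did not pass (adjusted p = 0.0749; 0.0251 with the replicate block, 0.0445 and 0.0464 without one or the other Ins1-RFP positive library), and rose by 1.59 ± 0.22 in Ins1-RFP positive cells (adjusted p = 0.000573). Kcnq3, a subunit of the neuronal M current, had 9 reads in the 2 Ngn3-low libraries, 1 in the 2 Ngn3-high libraries and 150 in the 2 Ins1-RFP positive libraries. The CPM ratio of Ins1-RFP positive to Ngn3-high was 147 with a counting interval of 26 to 5859, called at an adjusted p of 8.75e-05, and its fitted log2 change of 6.95 was 5.89 without the first and 9.36 without the second Ngn3-high library. The Kcnq3 fall in Ngn3-high against Ngn3-low (adjusted p = 0.0408) rests on 10 reads and was lost under DESeq2 (adjusted p = 0.11), with the replicate block (0.0614) and without any 1 library other than the second Ngn3-high one (0.0541 to 0.239).

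The remaining reported voltage-gated potassium genes gave smaller levels. Kcnh8, an elk-type gene, had 5.29 and 6.30 CPM in the Ngn3-low libraries, 25.2 and 23.7 in Ngn3-high and 12.9 and 12.4 in Ins1-RFP positive ones, highest in the middle group (2.17 ± 0.18, adjusted p = 1.65e-05, and -0.87 ± 0.17, adjusted p = 0.00318). Kcnh1, an eag-type gene often active in dividing cells, was lowest in the middle group, with 9.46 and 9.65 CPM in the Ngn3-low libraries, 3.26 and 2.68 in Ngn3-high and 17 and 11.6 in Ins1-RFP positive ones (-1.59 ± 0.26, adjusted p = 0.00101, and 2.34 ± 0.26, adjusted p = 0.000195). Kcnd1, which gives a transient current, rose by 1.21 ± 0.21 in Ins1-RFP positive against Ngn3-high cells (adjusted p = 0.002), with 23.4 and 19.8 CPM against 11.2 and 8.45 CPM. Its smaller rise of 0.75 ± 0.22 in Ngn3-high against Ngn3-low (adjusted p = 0.019) was lost without the second Ngn3-low library (0.63, adjusted p = 0.117) or the first Ngn3-high one (0.50, adjusted p = 0.129). Kcnh3 and Kcna5 stayed under 10 CPM in every library, Kcnh3 highest in Ins1-RFP positive and Kcna5 in Ngn3-high cells.

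Potassium modifiers are subunits that form no channel of their own, or small partners of the pores. Of 15, 2 were reported. Kcne1l, a small partner of the Kcne family, had 14 and 15.5 CPM in the Ngn3-low libraries, 3.91 and 3.85 in Ngn3-high and 1.00 and 1.04 in Ins1-RFP positive ones, a stepwise fall of 1.84 ± 0.22 (adjusted p = 0.000141) and 1.83 ± 0.26 (adjusted p = 0.000679). Kcng3, a silent subunit that joins Kcnb pores, had 2 reads in the 2 Ngn3-low libraries, 39 in Ngn3-high and 167 in Ins1-RFP positive libraries. Its CPM ratio of Ngn3-high to Ngn3-low was 20.3 with a counting interval of 5.25 to 173, and its fitted change of 4.28 was 3.13 without the first and 7.40 without the second Ngn3-low library. Its rise of 2.1 ± 0.48 in Ins1-RFP positive against Ngn3-high (adjusted p = 0.00719) was lost without the first Ngn3-high library (1.66, adjusted p = 0.0735).

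Inward rectifiers pass potassium best near rest. Of 14, 2 were reported, since Kcnj11 is not a member. Kcnj5, a subunit opened by G proteins, had 2.20 and 0.818 CPM in the Ngn3-low libraries, 17.7 and 15.1 in Ngn3-high and 11.5 and 5.52 in Ins1-RFP positive ones. It rose by 3.46 ± 0.48 in Ngn3-high against Ngn3-low (adjusted p = 0.000349; 4.42 without the first Ngn3-low library), and the lower Ins1-RFP positive level did not pass (-0.86 ± 0.41, adjusted p = 0.111) unless the first Ins1-RFP positive library was left out (-1.51, adjusted p = 0.00715). Kcnj2, a strong rectifier of muscle and brain, peaked in Ngn3-high cells, with 5.91 and 5.23 CPM in the Ngn3-low libraries, 13.3 and 10.7 in Ngn3-high and 6.59 and 6.41 in Ins1-RFP positive ones. It rose by 1.19 ± 0.22 (adjusted p = 0.00184), and its fall of 0.81 ± 0.22 (adjusted p = 0.015) was not called without the first Ngn3-high library (-0.61, adjusted p = 0.0985).

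Two-pore potassium channel genes changed in every direction. Of 10 tested, 4 rose and 5 fell in Ngn3-high against Ngn3-low, and 5 rose and none fell in Ins1-RFP positive against Ngn3-high cells. Of all genes tested, 27.7% rose and 30.2% fell in the first comparison, and 26.1% rose and 24.9% fell in the second. Kcnk16 (chr14:20261375-20269269), whose alkali-activated leak channel is found mainly in pancreas, had 49.6 and 37.5 CPM in the Ngn3-low libraries, 309.9 and 289.9 in Ngn3-high and 294 and 251 in Ins1-RFP positive ones. Ngn3-high and Ins1-RFP positive libraries overlapped (-0.05 ± 0.16, adjusted p = 0.802), and both lay above Ngn3-low, by 2.86 ± 0.17 in Ngn3-high (adjusted p = 2.92e-06). Its neighbour Kcnk5 (chr14:20140057-20181782), another alkali-activated channel, went the opposite way, with 35.5 and 32.9 CPM in the Ngn3-low libraries, 2.67 and 2.09 in Ngn3-high and 2.89 and 2.76 in Ins1-RFP positive ones. It fell by 3.74 ± 0.21 in Ngn3-high against Ngn3-low (adjusted p = 2.2e-06) and then differed by 0.32 ± 0.23 (adjusted p = 0.284). Kcnk1, a weakly active leak channel, fell by 1.89 ± 0.12 in Ngn3-high (adjusted p = 4.39e-06) and stood between in Ins1-RFP positive cells, with 58.6 and 64.2 CPM in the Ngn3-low libraries, 15.7 and 15.5 in Ngn3-high and 26.1 and 26.5 in Ins1-RFP positive ones (0.84 ± 0.12, adjusted p = 0.000799).

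Kcnk16 and Kcnk5 lie on the same strand of chromosome 14, and their upstream bases are set side by side because their levels moved in opposite directions. The Kcnk16 window (minus strand, chr14:20269270-20269519) has 54.8% GC and CAGATG at 142 bases before the start, and the Kcnk5 window (minus strand, chr14:20181783-20182032) has 62.8% GC and GGGCGG at 106, 94 and 47 bases:
Kcnk16: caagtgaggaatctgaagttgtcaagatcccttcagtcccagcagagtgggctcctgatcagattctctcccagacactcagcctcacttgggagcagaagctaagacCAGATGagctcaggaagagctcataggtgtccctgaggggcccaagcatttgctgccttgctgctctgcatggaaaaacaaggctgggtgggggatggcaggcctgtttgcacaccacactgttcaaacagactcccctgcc
Kcnk5: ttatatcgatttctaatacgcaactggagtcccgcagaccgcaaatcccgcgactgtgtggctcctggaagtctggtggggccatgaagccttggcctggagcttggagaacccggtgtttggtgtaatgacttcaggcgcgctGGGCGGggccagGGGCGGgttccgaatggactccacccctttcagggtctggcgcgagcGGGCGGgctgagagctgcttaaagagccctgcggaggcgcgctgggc

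Kcnk9 (chr15:72501873-72548614), the gene of an acid-sensitive leak channel known from cerebellar granule cells and adrenal cortex, was high in the Ins1-RFP positive libraries alone among the bulk groups. It had no read in the Ngn3-low libraries, 0.119 and 0.167 CPM in Ngn3-high and 127 and 117 CPM in Ins1-RFP positive libraries, where the 2 libraries lay close. The change in Ins1-RFP positive against Ngn3-high was 9.78 ± 0.24 (adjusted p = 1.04e-06), and against Ngn3-low the gene was at least 1225-fold higher, taking 3 reads over the group as the floor. The 4 reads in Ngn3-high cells stood against none in Ngn3-low, a CPM ratio of 1.39 over a floor of 3 reads. That ratio leaves out the counting error of the 4 reads and is no lower bound. The call of Ngn3-high against Ngn3-low (adjusted p = 0.0279) was lost under DESeq2 (0.0562) and without either Ngn3-low library or the second Ngn3-high one. No read of Kcnk9 was found in any of the 221 E13.5 cells. Its relative Kcnk3 rose by 1.80 ± 0.21 in Ngn3-high against Ngn3-low (adjusted p = 0.000148), with 14.9 and 17.1 CPM against 5.35 and 4.34 CPM, and had 15.8 and 20.1 CPM in Ins1-RFP positive libraries.

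Kcnk6, another two-pore leak channel gene, had 28.2 and 24.9 CPM in the Ngn3-low libraries, 0.415 and 0.251 in Ngn3-high and 1.00 and 2.46 in Ins1-RFP positive ones. It fell by 6.15 ± 0.45 in Ngn3-high against Ngn3-low (adjusted p = 8.14e-06), the largest fall among members of 10 CPM or more, and rose by 2.35 ± 0.54 in Ins1-RFP positive against Ngn3-high cells (adjusted p = 0.0065; 1.61 without the second Ins1-RFP positive library). White blood cell markers moved with it: all 11 fell in Ngn3-high against Ngn3-low, to summed levels of 18.7 and 9.12 CPM against 2742 and 2281 CPM, and were at 31.4 and 63.5 CPM in Ins1-RFP positive libraries. Among single cells, the same markers summed to 11.3 CPM in deleted and 7.58 CPM in WT Ngn3-high cells, and to 3.01 CPM in deleted and 6.06 CPM in WT Ngn3-low cells. Laptm5 alone stood at 7.56 CPM in deleted and 4.64 CPM in WT Ngn3-high cells, against 0.0767 CPM in deleted and 0.371 CPM in WT Ngn3-low cells. In Ngn3-high cells 6 of the 11 were at 0 in deleted and 4 in WT, Ptprc, Tyrobp, Cd53 and Aif1 in both. Kcnk6 stood there at 0.899 CPM in deleted and 0.62 CPM in WT Ngn3-high cells, and at 0.48 CPM in deleted and 0.371 CPM in WT Ngn3-low cells, so the gate difference seen in bulk was not seen in the cells. Endothelial markers also moved with Kcnk6 in bulk: all 12 fell in Ngn3-high against Ngn3-low, to 16 and 11.2 CPM against 520 and 576 CPM. They were at 68.1 and 88.9 CPM in Ins1-RFP positive libraries. In single cells they summed to 21.1 CPM in deleted and 19.3 CPM in WT Ngn3-high cells. In Ngn3-low cells they summed to 38 CPM in deleted and 45.2 CPM in WT, of which Egfl7 gave 32.3 and 41 CPM. The other lists of non-endocrine markers also summed lower in the bulk Ngn3-high libraries. Acinar markers were at 67.6 and 75.3 CPM against 548 and 478 CPM in Ngn3-low, and neural crest and glia markers at 88.3 and 83.5 against 490 and 482 CPM. Smooth muscle and pericyte, mesenchyme and red blood cell markers were lower too. The part of any of these cell types in the bulk fall was not tested.

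Of the 7 tested calcium-, sodium- or pH-activated potassium genes, 2 rose and 2 fell in Ngn3-high against Ngn3-low cells. Both counts are near the shares of all genes, 27.7% and 30.2%. In Ins1-RFP positive against Ngn3-high cells 4 rose and none fell, where 26.1% of all genes rose and 24.9% fell. Kcnn3, of the small-conductance calcium-activated family that follows calcium spikes, had 1.13 and 0.90 CPM in the Ngn3-low libraries, 0.771 and 0.502 in Ngn3-high and 12.2 and 11.6 in Ins1-RFP positive ones. Its relative Kcnn2 had 0.394 and 0.491 CPM in the Ngn3-low libraries, 0.415 and 0.669 in Ngn3-high and 8.48 and 8.72 in Ins1-RFP positive ones. For both, the E13.5 groups overlapped or lay close and the Ins1-RFP positive libraries stood apart, by 4.26 ± 0.32 for Kcnn3 (adjusted p = 2.75e-05) and 4.09 ± 0.35 for Kcnn2 (adjusted p = 4.92e-05) against Ngn3-high.

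Levels of different genes can be compared only per length, for which the authors deposited 1 pooled RPKM value (reads scaled by gene length and library size) per bulk group. By the authors' values, Kcnk16 led in each group, at 47.3 RPKM in Ngn3-low, 343 RPKM in Ngn3-high and 337 RPKM in Ins1-RFP positive cells. In Ngn3-low cells Kcnk1 followed with 24.7 RPKM and Kcnh2 with 10.9 RPKM. In Ngn3-high cells Cacna1h followed with 96.0 RPKM, Cacna2d1 with 93.2 RPKM, Kcnh6 with 61.3 RPKM, Kcnh2 with 57.3 RPKM and Cacna1a with 55 RPKM. In Ins1-RFP positive cells the next was Kcnk9 with 109 RPKM, ahead of Kcnh2 with 37.6 RPKM and Cacna1a with 34.4 RPKM. These pooled values have no spread, so neighbours in the order cannot be separated.

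In single cells the question was which cells carry these transcripts and whether Jmjd3 deletion moves them. Cells of a group were summed, intervals are exact 95% Poisson intervals that cover counting error only, and ratios are log2 with 1 CPM added to each side. Of the 33 members at 5 CPM or more in either WT group, 21 were at least 2-fold higher in Ngn3-high cells (63.6%, against 14% of all 11792 genes at that level). Another 6 were at least 2-fold lower (18.2%, against 19%), and the median log2 ratio was 1.50 against -0.05 for all genes. In deleted cells, 21 of 30 were higher (70%, against 15.3% of all genes) and 4 lower (13.3%, against 18.7%), with a median of 2.12 against -0.03. The 11 white blood cell markers summed to 3.01 to 11.3 CPM in these groups.

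Cacna2d1 stood at 454 CPM (447 to 462) in deleted and 469 CPM (462 to 475) in WT Ngn3-high cells, and at 3.61 CPM (3.11 to 4.16) in deleted and 4.92 CPM (4.18 to 5.74) in WT Ngn3-low cells. Kcnh6 stood at 154 CPM (149 to 158) in deleted and 135 CPM (131 to 138) in WT Ngn3-high cells, and at 0.671 CPM (0.468 to 0.934) in deleted and 0.866 CPM (0.575 to 1.25) in WT Ngn3-low cells. Both were a property of most Ngn3-high cells and few Ngn3-low cells: 10 CPM of Cacna2d1 was reached by 41 of 44 deleted and 54 of 59 WT Ngn3-high cells, but by 5 of 69 deleted and 5 of 49 WT Ngn3-low cells. For Kcnh6 it was reached by 39 deleted and 48 WT Ngn3-high cells and by 2 deleted and 2 WT Ngn3-low cells. Cacna1h was broader in the low gate, with 10 CPM in 41 deleted and 57 WT Ngn3-high cells and in 24 deleted and 17 WT Ngn3-low cells. Its summed level was 222 CPM in deleted and 208 CPM in WT Ngn3-high cells, and 15.8 CPM in deleted and 14.3 CPM in WT Ngn3-low cells. Cacna1a (52 CPM in deleted and 73.4 CPM in WT Ngn3-high cells, 3.11 CPM in deleted and 2.38 CPM in WT Ngn3-low cells) and Kcnb2 (64 CPM in deleted and 64.2 CPM in WT Ngn3-high cells, 1.21 CPM in deleted and 2.16 CPM in WT Ngn3-low cells) showed the same division.

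**Figure D4:**
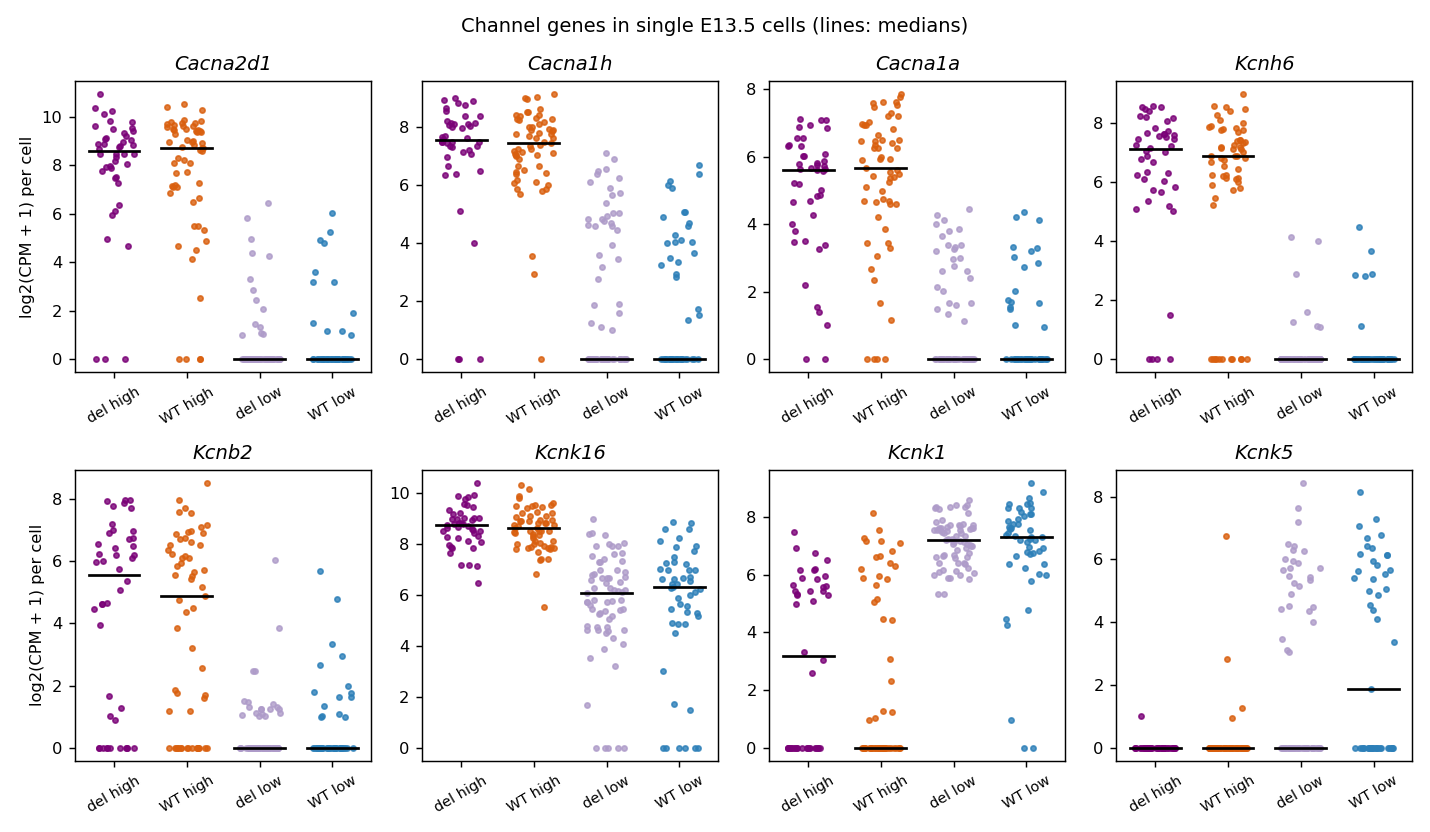
log2(CPM + 1) of 8 channel genes (vertical axis) in each single E13.5 cell (points) of 4 groups, deleted Ngn3-high, WT Ngn3-high, deleted Ngn3-low and WT Ngn3-low from left to right, with lines at group medians. Cacna2d1, Cacna1h, Cacna1a and Kcnh6 fill the Ngn3-high groups, Kcnk16 is present in nearly all cells, and Kcnk1 and Kcnk5 are higher in the Ngn3-low groups.

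Kcnk16 was present in both gates: 10 CPM was reached by all 44 deleted and all 59 WT Ngn3-high cells, and also by 62 of 69 deleted and 40 of 49 WT Ngn3-low cells. Its summed level was 457 CPM in deleted and 441 CPM in WT Ngn3-high cells, against 94.9 CPM in deleted and 117 CPM in WT Ngn3-low cells. Kcnk1 was the reverse, at 31 CPM in deleted and 30.8 CPM in WT Ngn3-high cells and 158 CPM in deleted and 180 CPM in WT Ngn3-low cells. It did not vanish from the high gate, where 21 of 44 deleted and 20 of 59 WT cells still reached 10 CPM. Kcnk5 nearly did, at 0.031 CPM in deleted and 1.49 CPM in WT Ngn3-high cells, against 23.7 CPM in deleted and 33.6 CPM in WT Ngn3-low cells. Kcnk5 was patchy within the low gate too, reaching 10 CPM in 24 of 69 deleted and 23 of 49 WT cells.

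More channel genes were detected per cell in the high gate. A cell held 10 CPM or more of a median of 12.5 coding members in deleted and 12 in WT Ngn3-high cells, and of 7 in both deleted and WT Ngn3-low cells. No count over all genes is at hand beside it, so it does not speak of channel genes in particular. Median reads per cell were 738979 in deleted and 721848 in WT Ngn3-high cells, and 734064 in deleted and 608883 in WT Ngn3-low cells. In WT Ngn3-high cells, all 48 cells with Kcnh6 at 10 CPM also had Cacna2d1, which 54 of 59 cells had, and 5 cells had neither. In deleted Ngn3-high cells, 37 had both, 2 had Kcnh6 alone and 1 had neither. As a description across cells, which share library preparation and depth, the Spearman correlation of Cacna2d1 and Kcnh6 was 0.426 in the 44 deleted and 0.638 in the 59 WT Ngn3-high cells. In WT this was the highest of the member pairs computed. The others ran from -0.238 (Kcnk16 with Kcnk1) to 0.568 (Cacna1h with Cacna1a). In deleted cells the pairs ran from -0.036 (Cacna2d1 with Kcnk1) to 0.544 (Cacna1h with Cacna1a). Scn9a was found in few cells: summed over WT Ngn3-high cells it stood at 18.5 CPM, while 5 of 59 cells reached 10 CPM and 50 had no read.

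Bulk libraries and single cells share no sample, and their gate differences were set side by side. Of the 33 tested members at 5 CPM or more in a WT single-cell group, 32 had the same sign in Ngn3-high against Ngn3-low, with a Spearman correlation of 0.943 and a Pearson correlation of 0.956 across genes, given as a description since genes are not independent replicates. The exception was Cacnb3, at 0.64 in bulk and -0.40 in WT cells. In deleted cells 28 of 30 had the sign of the bulk change, with a Spearman correlation of 0.868. The same figures were not computed over all genes, so they do not speak of these members in particular.

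**Figure D5:**
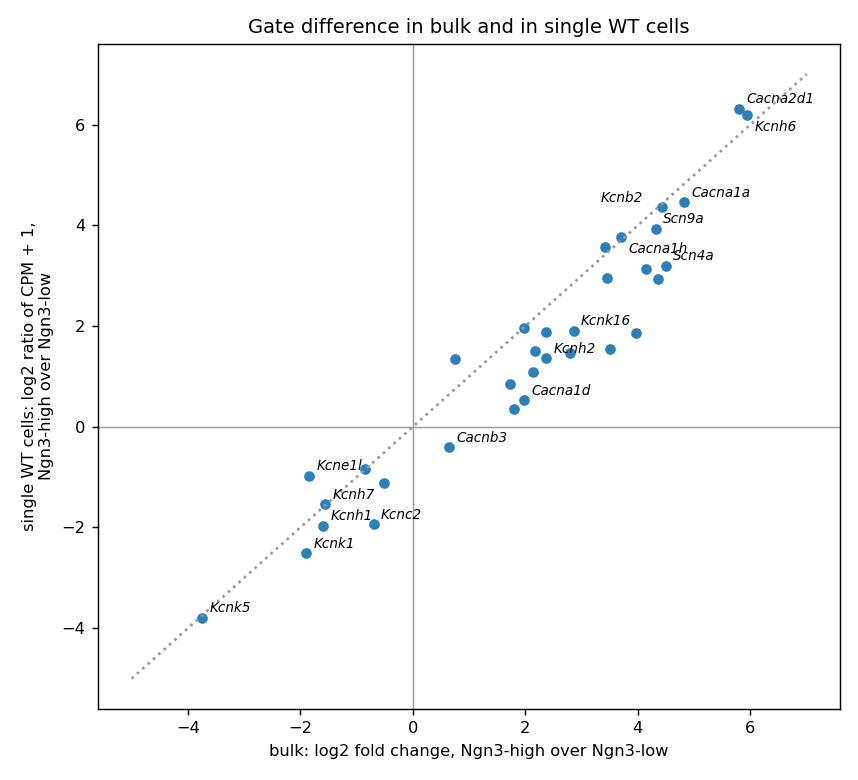
Each point is 1 of 33 channel genes, with its bulk log2 fold change (horizontal) and its log2 ratio of CPM + 1 summed over WT cells (vertical), both Ngn3-high over Ngn3-low; the dotted line marks equal values. The points lie near the line except that many rising genes fall under it, and Cacnb3 alone lies in a quadrant of opposite sign.

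Between genotypes, few members passed 2-fold. In deleted against WT Ngn3-high cells, 4 of 33 members were at least 2-fold higher (12.1%, against 2.96% of all genes). Only 1 was at least 2-fold lower (3.03%, against 2.76%), and the median log2 ratio was -0.00 against 0.03 for all genes. In deleted against WT Ngn3-low cells, 1 of 15 was higher (6.67%, against 1.7%) and 1 lower (6.67%, against 2.65%), with a median of -0.19 against 0.02. These member shares rest on 4 genes or fewer and have no test. Cacna1d, which met the naming rule, stood at 20.2 CPM (18.7 to 21.8) in deleted and 6.39 CPM (5.66 to 7.18) in WT Ngn3-high cells, a log2 ratio of 1.52. Few cells carried it, 12 of 44 deleted and 8 of 59 WT cells at 10 CPM, and its level differed between the numbers that cell titles carry: 24.2 CPM in deleted and 7.20 CPM in WT cells of number 1, 19.7 CPM and 6.89 CPM in number 5, and 5.18 CPM and 4.47 CPM in number 6.

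The other 6 genes past 2-fold are named after their values were seen. Kcnc1 had 8.40 CPM in deleted and 2.73 CPM in WT Ngn3-high cells, Scn3b 9.21 CPM in deleted and 3.12 CPM in WT, and Scn3a 6.14 CPM in deleted and 2.44 CPM in WT. Kcnj5 was lower, at 0.062 CPM in deleted and 7.21 CPM in WT Ngn3-high cells, where 5 of 59 cells reached 10 CPM. In the low gate Kcnd1 had 5.2 CPM in deleted and 1.73 CPM in WT cells, and Kcnc2 had 1.71 CPM in deleted and 6.96 CPM in WT cells. The direction turned within title number 6 for Kcnc1 (log2 ratio -3.25), Scn3a (-1.05) and Kcnj5 (0.48), within number 2 for Kcnd1 (-1.06) and within number 5 for Kcnc2 (0.08). The labels do not say what these numbers mean, and with 1 sample per group no difference between genotypes has a test.

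Genes that work with these channels were listed apart from the rule. Of 43, 40 were tested. In Ngn3-high against Ngn3-low, 22 rose and 7 fell, where 27.7% of all genes tested rose and 30.2% fell. In Ins1-RFP positive against Ngn3-high, 22 rose and 7 fell, where 26.1% of all genes rose and 24.9% fell. In Ins1-RFP positive against Ngn3-low cells, 25 rose and 7 fell, where 30.4% of all genes rose and 35.5% fell. Atp2a3, a pump that returns calcium to the endoplasmic reticulum, had 17.6 and 15.9 CPM in the Ngn3-low libraries, 938 and 879.7 in Ngn3-high and 1237 and 1096 in Ins1-RFP positive ones. Kcnma1, the large-conductance calcium-activated potassium pore, had 0.788 and 0.818 CPM in the Ngn3-low libraries, 41.7 and 41.3 in Ngn3-high and 79.8 and 66.1 in Ins1-RFP positive ones. Abcc8, the sulfonylurea receptor, had 128 and 123 CPM in the Ngn3-low libraries, 924 and 749 in Ngn3-high and 1547 and 1383 in Ins1-RFP positive ones. All 3 stepped up without overlap. Kcnip3, a calcium-binding partner of transient potassium channels, instead peaked in Ngn3-high cells, with 1.97 and 1.39 CPM in the Ngn3-low libraries, 19.2 and 19 in Ngn3-high and 2.26 and 2.91 in Ins1-RFP positive ones.

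Some members share their position with other genes, and since the strand setting of the counting is not given in the sources used here, reads in shared stretches cannot be assigned: Cacna1h overlaps Tpsg1, Cacna1d overlaps Chdh and Dcp1a, Cacna1c overlaps Dcp1b, Hcn3 overlaps Pklr, Cacnb1 overlaps Rpl19, Cacna2d4 overlaps Lrtm2, Kcnh3 overlaps Mcrs1, Kcnh7 overlaps Gca and Kcnb2 overlaps Gm51415. Kcnq1 contains the non-coding Kcnq1ot1, which had 42 and 147 CPM in the Ngn3-low libraries, 40.2 and 53.2 in Ngn3-high and 22.2 and 71.8 in Ins1-RFP positive ones. Its replicates differed more than its groups, and it passed no comparison. In single cells Kcnq1ot1 stood at 234 CPM in deleted and 226 CPM in WT Ngn3-high cells and at 410.5 CPM in deleted and 489 CPM in WT Ngn3-low cells.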

How the data were processed

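Bulk RNA (poly(A), directional kit) and single-cell Smart-seq2 RNA with ERCC spike-ins were measured, per the labels' protocols. The deposited tables hold raw read counts per gene, which the authors made with TopHat2 2.1.0, Bowtie2 and HTSeq 0.6.0 on mm10, per the submitters' processing notes, which also list DESeq 1.20.0; for the strand setting and annotation, the value is not given in the sources used here. The authors also deposited 1 pooled RPKM value per bulk group and gene.

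CPM was computed from the counts without the 92 ERCC rows. Bulk groups were compared with edgeR 4.0.16 (R 4.3.3; quasi-likelihood test, TMM, filterByExpr, 6 libraries in 1 fit, no replicate block), with Benjamini-Hochberg adjustment over 15684 genes; SE is the fold change's standard error from that fit. Replicates are libraries of 1 group, and each single-cell group was summed and counted as 1 sample. The scripts (Python 3.11.15, pandas 2.3.3, scipy 1.17.1, matplotlib 3.10.9) were tested on simulated data. Depth limits a bulk library to 0.169 to 0.251 CPM, the level of 3 reads, and all intervals and floors cover counting error only. DESeq2 1.42.0, other scalings and filters, a replicate block and leaving out libraries were tried as alternatives.

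The members, gene lists and tests were chosen with earlier results of these data known. Named genes are, per bulk comparison, up to 8 of the largest rises and falls at an adjusted p of 0.05 or less and 10 CPM or more in the higher group, and in cells those of 10 CPM or more, in 10% of cells, with a log2 ratio of 1 or more either way; other members are described by role. The 31 ChIP samples were not used here. Results of some members are not reported here by name; they remain in the counts, sums and medians.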

Additional observations from a re-analysis of the deposited data

How the results depend on the processing

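Over 1761 alternative values of single-gene bulk fold changes, 1696 kept direction and side of the threshold, 49 lost the call, 13 gained it and 3 reversed. These 3 are of genes that did not pass in Ins1-RFP positive against Ngn3-high cells: Kcnk16 (-0.19 to 0.071 on leaving out 1 library, above 0 without the first Ngn3-high or the second Ins1-RFP positive one) and Scn3a (-0.20 to 0.66, below 0 without the second Ins1-RFP positive one). Leaving out 1 library gave 41 to 47 members higher and 16 to 23 lower in Ngn3-high against Ngn3-low, 25 to 37 and 14 to 20 in Ins1-RFP positive against Ngn3-high, and 48 to 52 and 11 to 16 in Ins1-RFP positive against Ngn3-low. Replicate numbers did not pair the samples (correlations of deviations 0.0671, 0.093 and 0.0303); with the replicate block the counts were 44 and 17, 33 and 20, and 51 and 13. Shares of all genes called were not computed for the fits without 1 library or with the block, so these counts have no background beside them. At a level of 2 CPM 72 members would be reported, and at 10 CPM 43. Scaling by total counts moved the median of all genes by -0.17 in Ins1-RFP positive against Ngn3-low and by -0.08 in the other comparisons.

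In cells, counts past 2-fold were small and moved. The members at 5 CPM or more were chosen anew in each setting, so the number compared could change. Shares of all genes were not computed in these settings, so the counts do not speak of these members in particular. In deleted Ngn3-high against deleted Ngn3-low, 9 were lower within title number 1 and 7 within 5. In deleted against WT Ngn3-high, 1 was higher with 5 CPM added, 7 within number 1 and 7 within 5; 2 were lower by the mean over cells, 2 in cells of 500000 reads or more, and 7, 8 and 10 within numbers 1, 5 and 6. In deleted against WT Ngn3-low, 0 were higher by the mean, 0 with 5 CPM added, and 3, 0 and 4 within numbers 1, 2 and 5; 0 were lower with 5 CPM added, 3 in deeper cells, and 5, 4 and 8 within numbers 1, 2 and 5. Of 162 alternative single-gene ratios, 67 stayed within the range of their counting intervals, 89 left it with the same sign and 6 reversed. The sign turned for Kcnh7 in WT Ngn3-high against WT Ngn3-low (2.56 within number 5), and in deleted against WT cells for Kcnc1 (-3.25), Scn3a (-1.05), Kcnj5 (0.48), Kcnd1 (-1.06) and Kcnc2 (0.085). Kcnh7 had 2 reads in WT Ngn3-low cells of number 5. Kcnj5 had 2 reads in deleted and 0 in WT Ngn3-high cells of number 6. The causes were not tested.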
